A study of Mus musculus with 6 samples.

Results

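Annexins are proteins that bind acidic membrane phospholipids when calcium is present, and 9 of their genes were followed here: *Anxa1*, *Anxa2*, *Anxa3*, *Anxa4*, *Anxa5*, *Anxa6*, *Anxa7*, *Anxa11* and *Anxa13*. They were taken by gene symbol from a table of 21367 mouse genes. Of the 9, 8 passed the filter on low counts, as did 13036 genes in all, and only *Anxa13* did not. The members were chosen by name, with the levels of these genes in *Ptpn6*+/mev and wild-type kidneys already known from the same libraries, so every comparison between genotypes below describes these 6 kidneys, and its p-values, which come from a fit to the whole table, are not independent support.

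The study asked how too little SHP-1, the tyrosine phosphatase encoded by *Ptpn6*, changes the transcriptome of a kidney after ischemia-reperfusion injury (IRI). One group was 3 *Ptpn6*+/mev mice, heterozygous for the viable motheaten allele, a germline splice-site change carried by every cell of the animal, which the labels call SHP1 knockdown. The other group was 3 wild-type littermates. All 6 mice were 7 weeks old and on the C57BL/6 background, and all lost the right kidney, had the left renal pedicle clamped for 34 min and were killed 24 h later. RNA of the left kidney was enriched for poly-A mRNA and 1 library was sequenced per mouse. No kidney without IRI was analysed here, so the levels below are those of injured kidneys in both groups.

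An annexin consists of a variable N-terminal tail and a conserved core built from repeats that hold the calcium and rest on the membrane. The tail sets the partners, such as small S100 proteins, and the core gathers membranes during secretion, endocytosis and the resealing of torn plasma membranes. In the kidney, annexins are made by tubular epithelium as well as by leukocytes and vessels. Anxa1 is best known there for restraining leukocytes, and Anxa2 for binding plasminogen and tissue plasminogen activator.

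The core is visible in the coding sequences. Of all runs of 10 bases, read on the coding strand alone, CCATGAAGGG was 1 of 2 found in the most members, and the one with more matches. It occurred in 6 of the 8 members with a coding sequence in the GENCODE M21 annotation, all but *Anxa7* and *Anxa11*, and in 0.416% of 21613 mouse coding sequences. Since it was picked for being shared, the 6 members are a description. Matches per member numbered 1 in *Anxa3* and *Anxa5*, 2 in *Anxa1*, *Anxa2* and *Anxa4*, and 4 in *Anxa6*, whose core is present in duplicate. The first match of each is printed with its surroundings, the 10 bases in capitals, because the members must be told apart by their reads and these are among the stretches where they are most alike.
Anxa1, coding bases 368 to 410: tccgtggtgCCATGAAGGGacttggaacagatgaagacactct
Anxa2, coding bases 341 to 383: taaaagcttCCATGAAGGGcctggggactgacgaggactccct
Anxa3, coding bases 296 to 338: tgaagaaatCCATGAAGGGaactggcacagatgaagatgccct
Anxa4, coding bases 284 to 326: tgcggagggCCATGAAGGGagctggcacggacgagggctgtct
Anxa5, coding bases 758 to 800: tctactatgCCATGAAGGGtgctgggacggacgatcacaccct
Anxa6, coding bases 86 to 128: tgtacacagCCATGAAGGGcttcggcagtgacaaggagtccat
The other run, TCTGGAGACT, also occurred in 6 members, *Anxa1*, *Anxa2*, *Anxa3*, *Anxa5*, *Anxa6* and *Anxa11*, and in 0.514% of coding sequences.
Outside the capitals the sequences diverged. Over the aligned coding bases, the closest pair of members was *Anxa5* and *Anxa6*, at 69.5% identity. The longest identical run between any pair of annexin coding sequences was 18 bases, and 2 pairs held one. They were *Anxa3* (coding bases 915 to 932) with *Anxa11* (coding bases 1455 to 1472), and *Anxa2* (coding bases 190 to 207) with *Anxa8* (coding bases 154 to 171), printed with the run in capitals.
Anxa3: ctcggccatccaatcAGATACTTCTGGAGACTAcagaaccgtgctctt
Anxa11: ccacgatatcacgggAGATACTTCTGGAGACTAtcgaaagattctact
Anxa2: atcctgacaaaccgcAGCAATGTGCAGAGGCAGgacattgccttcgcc
Anxa8: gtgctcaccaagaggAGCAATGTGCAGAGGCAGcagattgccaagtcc
No window of 50 transcript bases was shared between *Anxa1*, *Anxa2*, *Anxa3*, *Anxa5*, *Anxa6*, *Anxa7* or *Anxa13* and any other gene. *Anxa11* was the exception, with 26.0% of its windows also present on the same strand in the annotated transcripts *Gm2260* and *Gm2274* and 2.90% in the antisense gene *Anxa11os*, so its level is uncertain. For *Anxa4*, 1.46% of windows overlapped the antisense gene *Gm44036*, and reads of both strands cannot be told apart where a library does not mark the strand.

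The 9 genes lie on 8 chromosomes of GRCm38 (positions from GENCODE M21). *Anxa7* (chr14:20455260-20480133) and *Anxa11* (chr14:25842156-25886804) share a chromosome. The others are *Anxa1* (chr19:20373428-20390944), *Anxa2* (chr9:69453620-69491795), *Anxa3* (chr5:96793339-96845966), *Anxa4* (chr6:86736840-86793584), *Anxa5* (chr3:36448923-36475894), *Anxa6* (chr11:54979108-55033445) and *Anxa13* (chr15:58341471-58389244).

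Total counts per library ranged from 10271590 to 12361745. Wild-type mouse 2 stood apart from the other 5 mice. On the first principal component of log2 CPM (counts scaled to the depth of the library), with 46.2% of the variance, it lay at 53.9 and the others between -17.5 and -3.76. Its summed FPKM (fragments per kilobase of transcript, scaled to the depth of the library) of 8 endothelial markers was 101 against 252 to 283 in the other 5 mice, and of 8 fibroblast markers 100.04 against 311 to 389. Both lists came to 8 of 8 genes past the count filter, with none at 0. The proximal tubule gene *Kap* reached 10201 FPKM in this mouse against 1520 to 2882 in the others. The kidney label fitted its markers, since *Umod* of the thick ascending limb lay at 1628 to 2556 FPKM and *Slc34a1* of the proximal tubule at 176 to 313 FPKM. *Ptpn6* itself lay at 11.8, 14.7 and 13.6 FPKM in the *Ptpn6*+/mev mice and 17.5, 10.9 and 15.4 FPKM in the wild-type mice, overlapping. A splice-site allele need not lower the mRNA level, so this does not check the genotype.

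*Anxa2* was the most abundant annexin in every kidney, and *Anxa3* stood higher among the others in *Ptpn6*+/mev than in wild-type kidneys. In the wild-type mice the order by mean FPKM ran *Anxa2*, *Anxa5*, *Anxa4*, *Anxa3*, *Anxa7*, *Anxa6*, *Anxa11*, *Anxa1* and *Anxa13*. The ranges over mice overlapped between *Anxa5* and *Anxa4*, between *Anxa3* and *Anxa7*, and between *Anxa6* and *Anxa11*. In the *Ptpn6*+/mev mice *Anxa3* stood second, above the range of *Anxa5*, followed by *Anxa4*, *Anxa7*, *Anxa11*, *Anxa1*, *Anxa6* and *Anxa13*, where *Anxa11*, *Anxa1* and *Anxa6* overlapped as neighbours. The 9 levels summed to 1604, 1725 and 1762 FPKM in the *Ptpn6*+/mev mice and to 1394, 1230.3 and 1418 FPKM in the wild-type mice. *Anxa2* made up 50.6% ± 1.82 of that sum in *Ptpn6*+/mev kidneys and 46.0% ± 5.14 in wild-type kidneys (SD, n = 3 mice each), and the lowest share, 40.1%, was that of wild-type mouse 2.

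**Figure D1:**
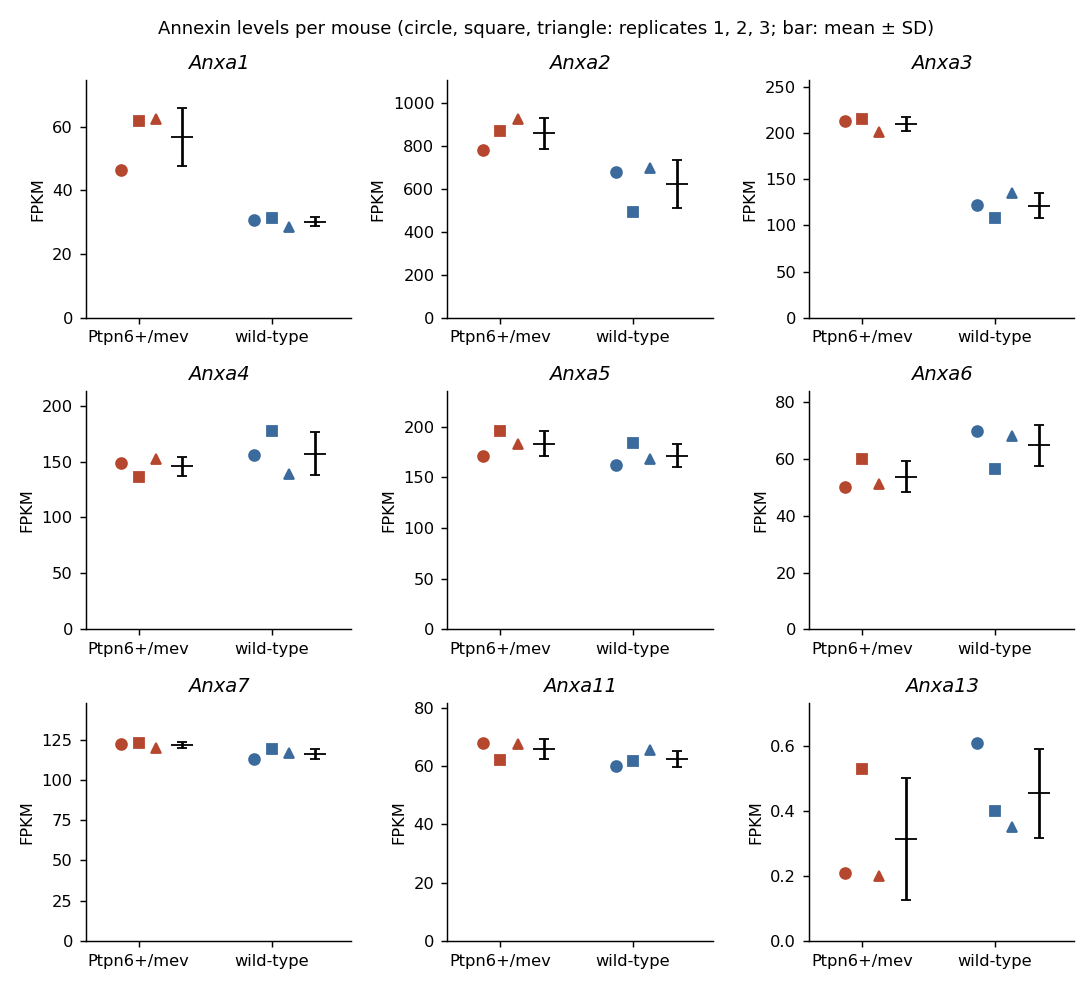
FPKM of each of the 9 annexins in every mouse, with 1 panel per gene and its own linear axis from 0 (circle, square and triangle are replicates 1, 2 and 3 of a group; bars are mean ± SD, n = 3 mice). The *Ptpn6*+/mev points of *Anxa1*, *Anxa2* and *Anxa3* all lie above the wild-type points, those of *Anxa4*, *Anxa5*, *Anxa6* and *Anxa11* overlap them, and *Anxa7* is apart by a small step.

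Of the 8 annexins tested, 1 passed an FDR of 0.05 in edgeR's quasi-likelihood test, *Anxa3*, which was higher in *Ptpn6*+/mev kidneys. Over all 13036 genes tested, 0.138% passed, and 0.0690% passed as higher. At an unadjusted p under 0.05, 3 annexins were higher (*Anxa1*, *Anxa2*, *Anxa3*) and 1 lower (*Anxa6*), against 12.2% of all genes in either direction. The median log2 fold change of the 8 was 0.01, against -0.002 over all genes. By mouse, the FPKM of 4 annexins, *Anxa1*, *Anxa2*, *Anxa3* and *Anxa7*, did not overlap between the groups and lay higher in *Ptpn6*+/mev, where 20.4% of all genes did not overlap and 14.0% lay higher. With CPM scaled by TMM, 4 again did not overlap, but with *Anxa6*, lower in *Ptpn6*+/mev, in the place of *Anxa7*, where 19.4% of all genes did not. In RNA of kidney tissue, more cells of a type and more RNA per cell cannot be told apart.

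*Anxa3* encodes a membrane-binding annexin first known as a phospholipase inhibitor and as a factor that gathers neutrophil granules. Its level was 213, 214.5 and 201 FPKM in the *Ptpn6*+/mev mice and 122, 107 and 135 FPKM in the wild-type mice. The groups were far apart, and the lowest *Ptpn6*+/mev kidney lay well above the highest wild-type kidney. The means were 209 ± 7.66 and 121 ± 13.9 FPKM (SD, n = 3 mice each). The log2 fold change was 0.71 (SE 0.09, 95% interval 0.51 to 0.92), or 1.64-fold, with an adjusted p of 0.0386 in edgeR's quasi-likelihood test. Over 15 other settings its log2 fold change stayed between 0.67 and 0.79. The call was lost when any of the 3 *Ptpn6*+/mev mice or wild-type mouse 1 was left out, with adjusted p from 0.105 to 0.226 (edgeR), and held without wild-type mouse 2, at 0.00997.

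*Anxa1* encodes the annexin that glucocorticoids induce and that acts on formyl peptide receptors to limit the entry of neutrophils. Its level was 46.3, 61.8 and 62.3 FPKM in the *Ptpn6*+/mev mice and 30.8, 31.2 and 28.7 FPKM in the wild-type mice. The wild-type kidneys lay close together, and *Ptpn6*+/mev mouse 1 was nearest to them without reaching them. It had the largest fold of the annexins tested, with a log2 fold change of 0.84 (SE 0.14, 95% interval 0.53 to 1.15), or 1.79-fold, and an adjusted p of 0.0685 in edgeR's quasi-likelihood test. It was past an FDR of 0.05 in 4 of 15 other settings, which were edgeR's exact test (adjusted p = 5.34e-05), DESeq2 (adjusted p = 5.48e-05), the fit without a count filter (adjusted p = 0.0448) and the fit without wild-type mouse 2 (log2 fold change 0.91, adjusted p = 0.0193). Of all genes, 2.99% were called by the exact test, 2.97% by DESeq2, 0.315% without a count filter and 1.77% without wild-type mouse 2.

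*Anxa2* encodes the annexin that joins with S100a10 at the cell surface and in endosomes, where the pair binds tissue plasminogen activator and plasminogen. Its level was 784, 871 and 925 FPKM in the *Ptpn6*+/mev mice and 679.8, 493 and 697 FPKM in the wild-type mice. No *Ptpn6*+/mev kidney lay below a wild-type kidney, but wild-type mouse 2 was lower than wild-type mice 1 and 3 by far more than these differed from each other. The log2 fold change was 0.41 (SE 0.12, 95% interval 0.14 to 0.68), with an adjusted p of 0.210 in edgeR. Without wild-type mouse 2 it was 0.30, with an adjusted p of 0.108, and the call was missed in each of the 15 other settings.

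The promoter table of RefSeq (GRCm38.p6) held 6 of the 9 members. It had no entry for *Anxa3*, *Anxa6* and *Anxa13*. Over the 250 bases before each start, 5 motifs were searched on both strands: AP-1 as TGANTCA, TEAD as GGAATG, the TATA box as TATAAA, the GC box as GGGCGG and the CCAAT box as CCAAT. *Anxa2* held the only AP-1 match among them, at bases -95 to -89 before the start, a motif present in 6.75% of 32851 promoters. It also held 3 GC boxes and a TATA box at -17 to -12, of which the TATA box and 2 GC boxes lie inside the first exon that GENCODE M21 gives the gene. *Anxa1* held a TEAD match at -236 to -231 (12.6% of promoters) and a TATA box at -32 to -27 (12.4%), in a window that GENCODE M21 places inside the first exon of a longer transcript. *Anxa4* and *Anxa5* held none of the 5, and *Anxa7* and *Anxa11* held GC boxes, as 32.7% of promoters do. In the *Anxa7* window chr14:20479942-20480191, those at -71 to -66, -57 to -52 and -28 to -23 lie inside the gene as GENCODE M21 places it. No member held the CCAAT box, found in 33.8% of promoters. The *Anxa2* stretch before its first annotated exon is printed because *Anxa2* is the most abundant annexin and carries that AP-1 match, with the AP-1 match and 1 GC box in capitals. These are matches of letters, and no binding was measured.
Anxa2, chr9:69453433-69453619, plus strand, GRCm38.p6: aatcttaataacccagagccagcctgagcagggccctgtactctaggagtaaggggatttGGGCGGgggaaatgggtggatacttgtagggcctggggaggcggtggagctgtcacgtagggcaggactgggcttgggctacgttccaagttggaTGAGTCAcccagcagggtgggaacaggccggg

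*Anxa6* encodes the annexin with the core in duplicate, which works at endosomes and binds cholesterol-rich membranes. It was the only tested annexin that was lower in *Ptpn6*+/mev kidneys at an unadjusted p under 0.05. Its level was 50.02, 60.0 and 51.2 FPKM in the *Ptpn6*+/mev mice and 69.9, 56.6 and 68.2 FPKM in the wild-type mice. The groups overlapped through mouse 2 of each genotype, and without wild-type mouse 2 they did not, where 35.4% of all tested genes did not overlap. The log2 fold change was -0.34 (SE 0.11, 95% interval -0.58 to -0.10), with an adjusted p of 0.242 in edgeR, and without wild-type mouse 2 it was -0.39, with an adjusted p of 0.0796. It stayed negative over the 15 other settings, from -0.43 to -0.27, with adjusted p from 0.0796 to 0.633.

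*Anxa4*, *Anxa5*, *Anxa7* and *Anxa11* had log2 fold changes between -0.19 and 0.02, none of them called. *Anxa5*, whose product binds exposed phosphatidylserine and is used to stain dying cells, lay at 171, 196 and 183 FPKM in the *Ptpn6*+/mev mice and 162, 184 and 168 FPKM in the wild-type mice. The groups overlapped, and the log2 fold change was 0.02 (95% interval -0.22 to 0.26), with an adjusted p of 0.964 in edgeR. Without wild-type mouse 2 the groups did not overlap, as was so for 35.4% of all tested genes. The log2 fold change was then 0.12 with an adjusted p of 0.499 in edgeR. *Anxa4*, an annexin of secretory epithelia, lay at 149, 136 and 152 FPKM in the *Ptpn6*+/mev mice and 155, 177 and 139 FPKM in the wild-type mice. The highest value was that of wild-type mouse 2. Its log2 fold change of -0.19 (95% interval -0.53 to 0.15) became 0.0006 without that mouse.

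*Anxa7*, also called synexin and known for fusing membranes, lay at 122, 123 and 119.7 FPKM in the *Ptpn6*+/mev mice and 113, 119 and 117 FPKM in the wild-type mice. The FPKM groups did not overlap, but by a gap smaller than the spread of either group, and the count-based log2 fold change was -0.00 (95% interval -0.19 to 0.19). The SD was 1.85 and 3.15 FPKM. *Anxa11*, which binds S100a6 and Pdcd6 and is tied to the transport of RNA granules, lay at 68.0, 62.0 and 67.6 FPKM in the *Ptpn6*+/mev mice and 60.0, 61.6 and 65.4 FPKM in the wild-type mice. The groups overlapped, with a log2 fold change of 0.01 (95% interval -0.19 to 0.20).

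*Anxa13*, an annexin of epithelium, was close to undetected. Its counts were 2, 5 and 2 in the *Ptpn6*+/mev mice and 6, 4 and 4 in the wild-type mice, or 0.20 to 0.61 FPKM over all 6. The counts of both groups overlapped, and a difference was not detectable at this depth. In a fit without a count filter the log2 fold change was -0.57, with a 95% interval from -2.10 to 0.96. GENCODE M21 lists the gene as a processed transcript, without a coding sequence.

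**Figure D2:**
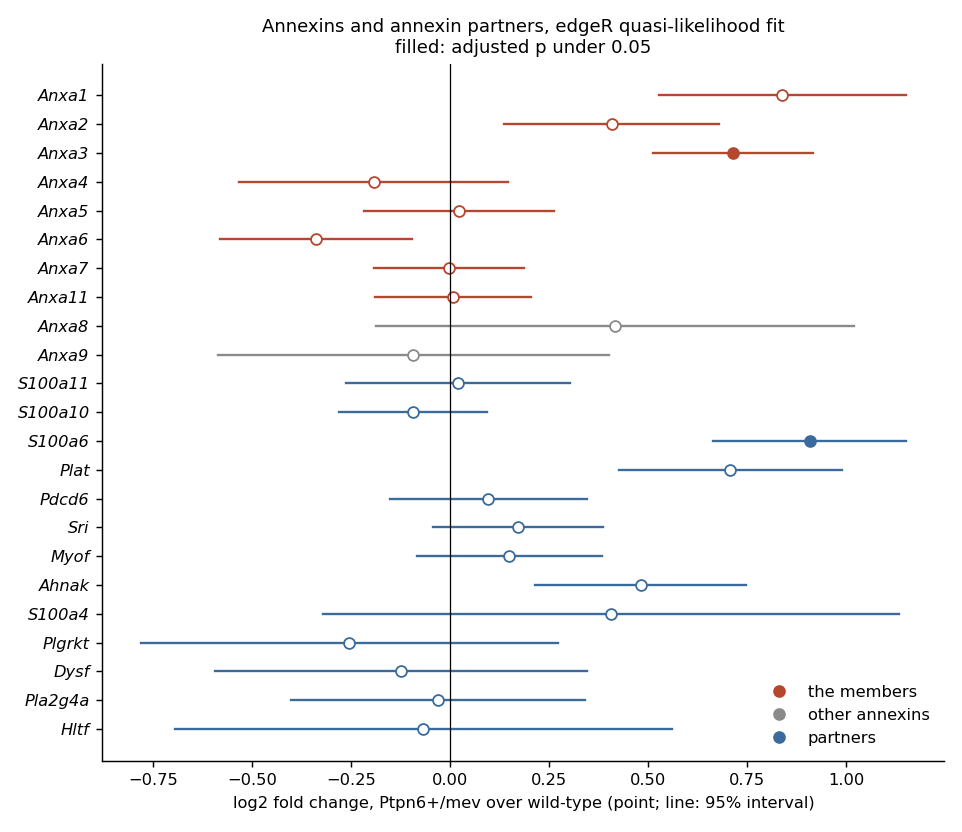
Log2 fold change of *Ptpn6*+/mev over wild-type (horizontal axis, point with its 95% interval) for the 8 tested members, *Anxa8*, *Anxa9* and the 13 tested partner genes in edgeR's quasi-likelihood fit (n = 3 mice per group). The filled points, *Anxa3* and *S100a6*, are the genes with an adjusted p under 0.05. Of the genes without one, the intervals of *Anxa1*, *Anxa2*, *Plat* and *Ahnak* lie above 0 and that of *Anxa6* lies below 0.

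The table held 3 more annexin genes, of which 2, *Anxa8* and *Anxa9*, passed the count filter. Neither was called by edgeR's quasi-likelihood test, by DESeq2 or by edgeR's exact test, nor had an unadjusted p under 0.05 in the first. *Anxa8* lay at 1.81, 1.94 and 2.90 FPKM in the *Ptpn6*+/mev mice and between 1.33 and 1.72 FPKM in the wild-type mice. These did not overlap, with a log2 fold change of 0.42 (95% interval -0.19 to 1.02) and an adjusted p of 0.593 in edgeR. With 1 library left out the log2 fold change ranged from 0.24, without *Ptpn6*+/mev mouse 3, to 0.52. *Anxa9* lay between 2.36 and 3.22 FPKM with overlapping groups. *Anxa10*, below the filter, had counts of 0, 2 and 1 in the *Ptpn6*+/mev mice and 0 in each wild-type mouse, so no fold is given. As a whole these genes summed to at most 5.70 FPKM in a library.

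Ratios between annexins of the same library do not depend on how libraries are scaled. *Anxa3* over *Anxa7* was 1.74, 1.74 and 1.68 in the *Ptpn6*+/mev mice and 1.08, 0.902 and 1.15 in the wild-type mice, so that *Anxa3* was below *Anxa7* in a single kidney, that of wild-type mouse 2. *Anxa1* over *Anxa7* was 0.378, 0.502 and 0.521 against 0.273, 0.263 and 0.245. Neither ratio overlapped between the groups. *Anxa1* over *Anxa6* came to 0.926, 1.03 and 1.22 in the *Ptpn6*+/mev mice and 0.441, 0.552 and 0.420 in the wild-type mice. This was the widest contrast among these pairs of annexins. It set the largest rise among the annexins tested over a gene that was lower, so its width follows from the genes chosen. *Anxa2* over *Anxa5* was 4.59, 4.45 and 5.06 against 4.18, 2.68 and 4.15, which did not overlap, the nearest values being 4.45 and 4.18. None of these ratios was tested, and no share over other pairs of genes is given. A ratio does not tell which gene of its pair differed, nor that the denominator stayed the same.

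**Figure D3:**
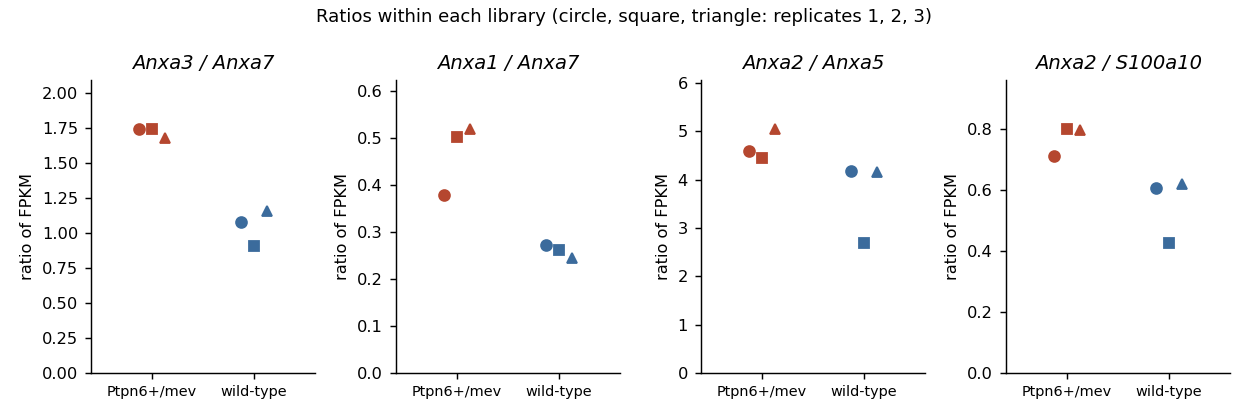
Ratios of FPKM within each library (vertical axes, linear from 0) for *Anxa3* over *Anxa7*, *Anxa1* over *Anxa7*, *Anxa2* over *Anxa5* and *Anxa2* over its partner *S100a10*, by genotype (circle, square and triangle are replicates 1, 2 and 3). In each panel the 3 *Ptpn6*+/mev mice lie above the 3 wild-type mice, and the lowest value of *Anxa2* over *Anxa5*, 2.68, is that of wild-type mouse 2.

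Of 16 genes whose products bind or work with annexins, 13 were tested and 1 was called, *S100a6*, against 0.0690% of all genes called higher. *Fpr1* and *Fpr2*, the formyl peptide receptors for Anxa1, did not pass the count filter, with at most 14 and 11 counts in a library, and *Plg*, plasminogen, had no count in any library. The median log2 fold change of the 13 was 0.10. At an unadjusted p under 0.05, 3 were higher (*S100a6*, *Plat* and *Ahnak*, the last named after its values were seen) and 0 were lower, against 12.2% of all tested genes in either direction.

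*S100a6*, calcyclin, is a small calcium sensor that binds several annexins, Anxa11 among them. It lay at 828, 878 and 1041 FPKM in the *Ptpn6*+/mev mice and 488, 458 and 445 FPKM in the wild-type mice. The groups were widely separated, with the wild-type kidneys close together. Its log2 fold change was 0.91 (SE 0.11, 95% interval 0.66 to 1.15), or 1.88-fold, with an adjusted p of 0.0310 in edgeR's quasi-likelihood test. The call was lost without wild-type mouse 1 or any of the *Ptpn6*+/mev mice, with adjusted p from 0.0869 to 0.167 (edgeR). It was also lost with the replicate number as a block, at an adjusted p of 0.141 in edgeR.

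*Plat*, tissue plasminogen activator, lay at 163, 158 and 159 FPKM in the *Ptpn6*+/mev mice and 80.9, 85.9 and 114 FPKM in the wild-type mice. The groups did not overlap. Its log2 fold change was 0.71 (95% interval 0.43 to 0.99), with an adjusted p of 0.0786 in edgeR. It was called in 4 of 15 other settings, and over all 15 the adjusted p reached 0.382 in edgeR. The 4 were DESeq2 (adjusted p = 0.000174), edgeR's exact test (0.000531), and the fits without wild-type mouse 2 (0.0324) and without wild-type mouse 3 (0.0282). Of all genes, 2.97% were called by DESeq2, 2.99% by the exact test and 1.77% without wild-type mouse 2. No such share is given without wild-type mouse 3. *S100a10*, the partner of *Anxa2* at the membrane, lay between 1088 and 1162 FPKM in the *Ptpn6*+/mev mice and between 1122 and 1157 FPKM in the wild-type mice. Its groups overlapped, with a log2 fold change of -0.09 (95% interval -0.28 to 0.09), while *Anxa2* over *S100a10* was 0.712, 0.801 and 0.796 against 0.606, 0.426 and 0.620 and did not overlap. *S100a11*, which binds the tail of Anxa1, had a log2 fold change of 0.02 (95% interval -0.26 to 0.30). Of the binders of Anxa11 and Anxa7, *Pdcd6* had 0.10 (95% interval -0.15 to 0.34) and *Sri*, sorcin, had 0.17 (95% interval -0.04 to 0.39).

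**Figure D4:**
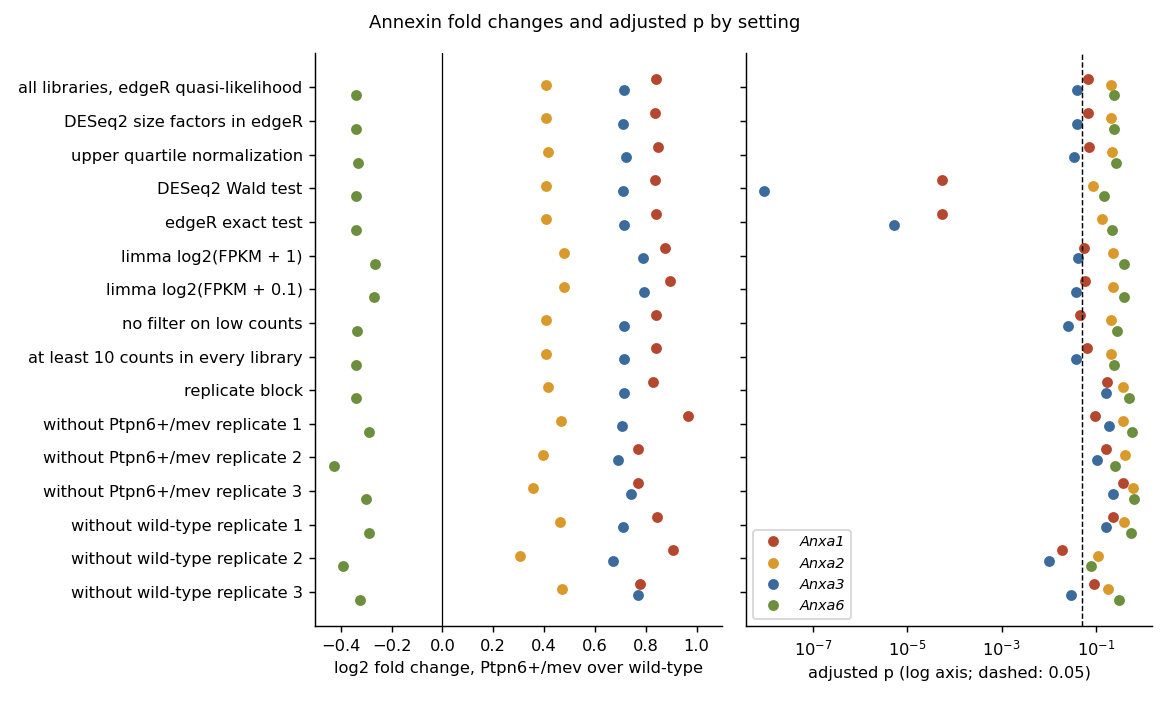
Log2 fold change (left, linear axis) and adjusted p (right, log axis, dashed line at 0.05) of *Anxa1*, *Anxa2*, *Anxa3* and *Anxa6* in the fit reported and in 15 other settings (rows). The fold changes keep their sign, from 0.67 to 0.79 for *Anxa3*, 0.77 to 0.97 for *Anxa1*, 0.30 to 0.48 for *Anxa2* and -0.43 to -0.27 for *Anxa6*, while the adjusted p of *Anxa3* and *Anxa1* crosses 0.05 from one setting to another.

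The genes whose pattern was most like that of *Anxa3* were sought by Pearson's r of log2 CPM over the 6 libraries, among 11852 tested genes with a mean of at least 1 FPKM. The 5 highest were *Cdca8*, *Bub1b*, *Slc35e4* and *Oser1*, each at r = 0.997, and *Mmp10* at r = 0.993. *Anxa1* (r = 0.886) ranked 360 and *Anxa2* (r = 0.876) ranked 409. For *Anxa2* the 5 highest were *Rps9* (0.995), *Bicd2* (0.994), *Plac9b* (0.993), *Akt1* (0.993) and *Ccl9* (0.990). With 6 points that share their genotype and, for *Anxa2*, the low value of wild-type mouse 2, these values are given as a description. The levels of *Cdca8* were 7.04, 7.81 and 6.61 FPKM in the *Ptpn6*+/mev mice and 3.01, 2.40 and 3.32 FPKM in the wild-type mice, and those of *Rps9* were 1142, 1186 and 1201 FPKM against 1081, 927 and 1086 FPKM. Each put the 6 kidneys in the same order as its annexin did.

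The Gene Ontology columns of the table show what the members share on paper. All 9 carried lipid binding (3.55% of tested genes), ion binding (33.8%) and extracellular space (20.2%). Plasma membrane was given for 7 (21.4% of tested genes), cytoplasmic vesicle for 6 (9.44%) and RNA binding for 4, namely *Anxa1*, *Anxa2*, *Anxa7* and *Anxa11* (11.1%). Vesicle-mediated transport was given for *Anxa1*, *Anxa2*, *Anxa3* and *Anxa11* (7.72% of tested genes).

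Annexins are made by many cells of an injured kidney, so 9 marker lists are given beside them, and none of their genes was called by edgeR's quasi-likelihood test. At an unadjusted p under 0.05, which 12.2% of all tested genes reached in either direction, the list of the injured tubule had 5 of 10 genes higher and 1 lower. The 5, named after their values were seen, were *Vcam1* (log2 fold change 1.05), *Cdkn1a* (0.56), *Krt18* (0.55), *Krt8* (0.28) and *Havcr1* (0.27), and the lower one was *Spp1*. Each of the 5 had FPKM groups that did not overlap, as did 20.4% of all tested genes, with 14.0% higher in *Ptpn6*+/mev. The most abundant genes of the list were *Spp1* (log2 fold change -0.38), *Clu* (0.08) and *Lcn2* (-0.08). Its summed level, 27041 to 33041 FPKM in *Ptpn6*+/mev and 30251 to 39058 FPKM in wild-type kidneys, overlapped and was mostly *Spp1*. Of the 10 proximal tubule genes 5 were lower and 0 higher at that p, with sums from 2864 to 3689 FPKM against 2482 to 11108 FPKM, the last from *Kap* in wild-type mouse 2. *Miox*, a proximal tubule enzyme, was at 158, 183 and 151 FPKM against 233, 200.3 and 220 FPKM. The distal nephron and collecting duct list had 1 of 10 higher and 2 lower, and the podocyte list 1 of 6 higher. The endothelial, macrophage, neutrophil, fibroblast and blood lists had 0 in either direction at that p. Genes whose FPKM groups did not overlap numbered 0 higher and 4 lower in the proximal tubule list. The distal nephron and collecting duct list had 2 such genes higher and 2 lower. The podocyte, neutrophil and fibroblast lists each had 1 higher and 0 lower, the neutrophil one below the count filter. Macrophage markers, all 10 past the count filter, summed to 209.6 to 328 FPKM in *Ptpn6*+/mev and 174 to 299 FPKM in wild-type kidneys. Neutrophil markers, 5 of 12 past it, summed to 25.2 to 58.5 FPKM and 27.0 to 46.2 FPKM, and their part in the level of *Anxa1* or *Anxa3* was not tested. *S100a9*, the most abundant of them, had 79 to 226 counts in a library, *S100a8* 14 to 33 and *Retnlg* 15 to 36. *Mpo* and *Elane*, granule genes transcribed mainly in marrow precursors, were at a count of 0 in 5 of 6 libraries and at 1 in the other. The remaining sums were 2116 to 3020 against 2552 to 2979 FPKM for the distal nephron and collecting duct, 123 to 157 against 88.9 to 136 FPKM for podocytes, and 589 to 1633 against 502 to 1298 FPKM for blood. The part of the tubular lists in the annexin levels was not tested either.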

How the data were processed

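The authors sequenced poly-A mRNA of 6 kidneys as read pairs and deposited 1 table of estimated counts and FPKM per gene and library. The paper names TopHat and Cufflinks against Ensembl release 90 of GRCm38.p5, and the submitters' processing notes add Bowtie2 and RSEM; which tool made the counts is not given in the sources used here. Of 21367 genes, 1744 had a fractional count, no annexin among them, and counts were rounded. The 3 mice of each genotype were compared with the quasi-likelihood test of edgeR 4.0.16 in R 4.3.3 (TMM, filterByExpr by group, log2 CPM with a prior count of 2), p-values adjusted by Benjamini and Hochberg's method across 13036 genes, a call at an FDR of 0.05, and the code was tested on simulated data. Genes below the filter were read from a fit without it. Alternatives were DESeq2 1.42.0, limma 3.58.1 on log2(FPKM + 1) and log2(FPKM + 0.1), edgeR's exact test, other normalizations and filters, a block for the replicate number, and the removal of each library.

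The members and gene lists were chosen with earlier results of these data known. Named are all annexins, called partners and the 6 most abundant, the 5 genes most like *Anxa3* and *Anxa2*, up to 3 of each marker list by mean FPKM, and *Ptpn6*, besides those said to be chosen later and the markers that check the kidney label or define neutrophils. Positions and coding sequences come from GENCODE M21 and promoters from RefSeq. The authors' Gene Ontology columns were used for annotation, and the KEGG columns were not used.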

Additional observations from a re-analysis of the deposited data

How the results depend on the processing

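Of 15 other settings, the annexins called numbered 2 (*Anxa1* and *Anxa3*) with DESeq2, with edgeR's exact test and without a count filter, 0 with the replicate number as a block, and 0 to 2 when 1 library was left out. Partners called numbered 3 with DESeq2 and with the exact test, where 2.97% and 2.99% of all genes were called against 0.138%, and 0 with the block and 0 to 2 with 1 library left out. The 2, *Plat* and *S100a6*, were called without wild-type mouse 2, where 1.77% of all genes were called, and also without wild-type mouse 3. No share over all genes is given for the other fits with 1 library left out, so their calls have nothing to be set beside. Deviations from the group mean correlated at -0.144, -0.184 and -0.130 between same-numbered mice, and at -0.0101 to 0.158 between the other pairs. Under the block *Anxa3* had a log2 fold change of 0.72 and an adjusted p of 0.166 in edgeR. The labels do not say what same-numbered mice share, and this was not tested. Annexins whose groups did not overlap numbered 4 to 7 of 9 with 1 library left out, when 26.9% to 35.4% of all tested genes did not overlap. The 7, without *Ptpn6*+/mev mouse 2 (30.4% of tested genes), included *Anxa13*, which was not tested. Without wild-type mouse 2, where 1.77% of all genes were called, *Anxa1* and *Anxa3* both passed.

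Of 120 log2 fold changes of members over these settings, 99 kept their direction and their side of the threshold, 4 gained a call, 5 lost one and 12 changed sign, the last all in *Anxa4*, *Anxa5*, *Anxa7* and *Anxa11*, close to 0. *Anxa7* was 0.00451 with upper quartile normalization and 0.0661 and 0.0666 with limma on log2(FPKM + 1) and log2(FPKM + 0.1), which shifts the median of all genes to 0.06 or 0.08. With 1 library left out the ranges were -0.301 to 0.000582 for *Anxa4*, -0.0303 to 0.121 for *Anxa5*, -0.0309 to 0.0561 for *Anxa7*, -0.0267 to 0.0443 for *Anxa11*, -0.188 to 0.00581 for *Anxa9* and -0.0561 to 0.154 for *S100a11*. The cause was not tested. Genes with too few counts at this depth to pass the count filter included *Anxa13*, *Anxa10*, *Fpr1*, *Fpr2*, *Plg* and 7 of 12 neutrophil markers.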
